A study of Mus musculus with 2 samples.

Results

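The genes described are Dlx1, Dlx2, Dlx5 and Dlx6, the Dlx homeobox genes of the developing forebrain. They were taken as every probe set to which the array's platform annotation gives one of these symbols and no other. Each gene had 1 such probe set, so the group holds 4 of 12488 probe sets and 4 of the 8251 genes named on the array. RNA came from the E14.5 cerebral cortex of mouse embryos of the NMRI strain, from wild type embryos on 1 array and from Pax6-/- embryos, which lack both functional copies of the transcription factor gene Pax6, on the other. The series design mentions 3 embryos of each genotype without saying if their RNA was pooled, and the Pax6 allele is not named. With 1 array per genotype nothing here could be checked on replicates, and p-values are not given.

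Dlx genes are the vertebrate relatives of the fly gene Distal-less and encode transcription factors with a homeodomain. They lie in linked, convergently transcribed pairs that share enhancers in the DNA between them, and the members of a pair tend to be expressed together. In the embryonic telencephalon they are known as genes of the subpallium, the ventral part that makes GABAergic neurons. Dlx1 and Dlx2 appear first, in dividing progenitors of the ganglionic eminences, and Dlx5 and Dlx6 follow as the cells mature. Pax6 belongs to the opposite, pallial side, where cortical glutamatergic neurons are made, and in a normal cortex Dlx-expressing cells are mostly interneurons that have migrated in from the subpallium.

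The regions before the starts of Dlx1 and Dlx2 are shown because these genes had the highest log2 ratios among genes above the signal filter and are a pair in which both genes were far higher in the mutant. Both sequences are from RefSeq on GRCm38.p6, are printed 5′ to 3′ on the gene's own strand, and hold the 250 bases before the start. Dlx1 lies on the plus strand at chr2:71529195-71529444 and Dlx2 on the minus strand at chr2:71546755-71547004, so that the genes face each other, with starts 17309 bases apart. Capitals mark matches to the motifs named below.
Dlx1: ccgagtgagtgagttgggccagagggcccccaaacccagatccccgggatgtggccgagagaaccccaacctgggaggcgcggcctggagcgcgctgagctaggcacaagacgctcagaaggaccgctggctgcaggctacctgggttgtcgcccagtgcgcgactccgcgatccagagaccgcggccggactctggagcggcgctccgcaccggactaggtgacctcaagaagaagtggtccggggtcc
Dlx2: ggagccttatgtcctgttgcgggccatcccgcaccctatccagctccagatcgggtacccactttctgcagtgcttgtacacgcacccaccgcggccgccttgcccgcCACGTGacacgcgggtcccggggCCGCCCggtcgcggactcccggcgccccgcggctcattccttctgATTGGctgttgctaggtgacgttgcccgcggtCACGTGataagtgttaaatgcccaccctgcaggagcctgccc

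Both windows were rich in G and C. The share of G and C was 68.0% before Dlx1 and 66.4% before Dlx2, against a median of 52.4% over 32851 RefSeq promoter windows of the same length. CpG dinucleotides numbered 22 before Dlx1 and 24 before Dlx2, against a median of 6. Both strands were searched for TAATTA, a core that many homeodomain proteins bind, the TATA box as TATAAA, the CCAAT box, the GC box as GGGCGG, and the E boxes of letters CAGCTG or else CACGTG. The Dlx1 window held no match to any of them. The Dlx2 window held CACGTG at 142 and 42 bases before the start, GGGCGG at 119 and CCAAT at 74, the latter pair read on the opposite strand and none overlapping another. Of all windows, 6.02% held CACGTG, 32.7% GGGCGG, 33.8% CCAAT, 13.0% CAGCTG, 12.4% TATAAA and 4.84% TAATTA. The motif CACGTG was added to the search after the sequence had been read. Such matches describe the letters of these windows and are not binding sites.

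The targeted gene was measured first. Pax6 gave a MAS5 signal of 1169 for wild type against 447 for Pax6-/-. MAS5 is the Affymetrix algorithm that reduces the probes of a probe set to 1 signal on a linear scale. Ratios are given as mutant minus wild type on a log2 scale after adding 81.5, the 25th percentile of all signals, and centring, so that they understate differences of dim genes. On this scale Pax6 was at -1.29. The position of its probe set relative to the mutation is unknown, so this value is no full check of the labels.

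Of the Dlx genes, Dlx1, Dlx2 and Dlx5 were at least 2-fold higher in the Pax6-/- cortex, and Dlx6 was dim and nearly equal on both arrays. The signal of Dlx1, a regulator of interneuron development and survival, was 162 in wild type cortex and 5982 in Pax6-/- cortex. The mutant signal was 36.9 times the wild type signal without a pseudocount and 24.1 times with it, a log2 ratio of 4.59. The signal of Dlx2, which acts with Dlx1 in subpallial progenitors, was 179 in wild type cortex and 4180 in Pax6-/- cortex. That is 23.4 times without a pseudocount and 15.9 times with it, a log2 ratio of 3.99. Of the probe sets on the wild type array, 41.2% were dimmer than that of Dlx1 and 43.3% dimmer than that of Dlx2. On the mutant array these shares were 98.8% and 98.0%.

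Dlx5, which follows Dlx1 and Dlx2 as subpallial cells leave the ventricular zone, measured 113 in wild type and 699 in Pax6-/- cortex. Its mutant signal was 6.19 times the wild type signal without a pseudocount and 3.89 times with it, a log2 ratio of 1.96. Dlx6, its partner in the linked pair, had signals of 65.6 and 73.0, a plain ratio of 1.11 and a log2 ratio of 0.03. Only 23.3% and 20.7% of probe sets were dimmer than Dlx6 in wild type and Pax6-/-. No detection calls were at hand, so it is not known whether the Dlx6 probe set measured its transcript on either array.

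**Figure D1:**
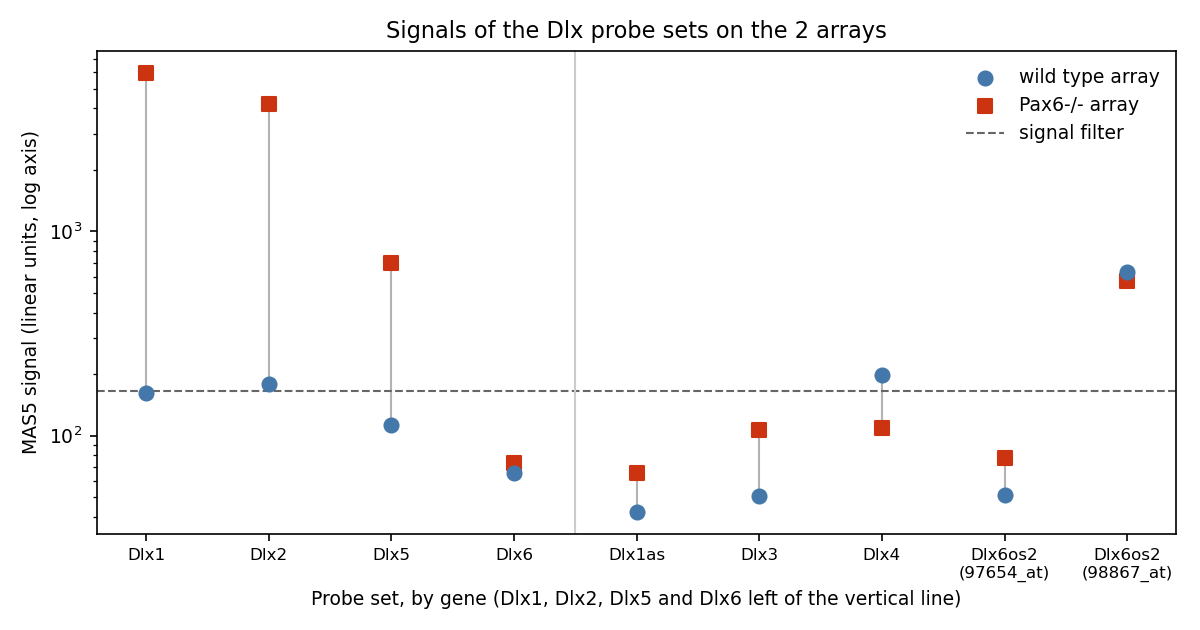
MAS5 signal (log axis) of each Dlx probe set on the wild type array (circles) and the Pax6-/- array (squares), 1 array each, with the signal filter of 166 as a dashed line. Dlx1 and Dlx2 go from 162 and 179 to 5982 and 4180, Dlx5 from 113 to 699, while Dlx6 stays at 65.6 and 73.0. Right of the vertical line are Dlx3, Dlx4 and the antisense RNAs.

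Genes were kept by a filter on mean log2 signal, set at the 40th percentile and so near a signal of 166. Of 5587 genes above it, 282, or 5.05%, were higher by 2-fold or more, and 306, or 5.48%, were lower by as much. The split was 210 higher and 364 lower after loess scaling, 219 and 357 after quantile scaling, and 317 and 281 without centring. Dlx1, Dlx2 and Dlx5 passed the filter and Dlx6 did not. The wild type signals of Dlx1 and Dlx5 lay below the filter level, so these genes passed only through the mutant array, and a count among genes that passed says little about them. Over all genes, with the centring unchanged, 3 of the 4 Dlx genes were at least 2-fold higher, against 550 of all 8251 genes, or 6.67%, and 460 genes, or 5.58%, were at least 2-fold lower.

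Among the genes above the filter, Dlx1 had the highest log2 ratio and Dlx2 the next, and Dlx5 was 17th. The next highest after Dlx2 were Trap1a at 2.50, the imprinted gene Nnat (neuronatin) at 2.49, Snx21 at 2.44, Trh, the precursor of thyrotropin-releasing hormone, at 2.40, and Mrpl55 at 2.28. Trap1a, Snx21, Trh and Mrpl55 had wild type signals below the pseudocount and mutant signals between 536 and 655. Dlx1 and Dlx2 differed from them in the size of the mutant signal. By plain increase in signal from wild type to mutant, with decreases left out of the order, Dlx1 was 2nd with 5820 and Dlx2 4th with 4002 among 8251 genes. Nnat was 1st with 9266, and the splicing gene Snrpb, named after its values were seen, lay between Dlx1 and Dlx2 with 4371. By plain ratio, which favours dim genes, Dlx1 was 4th, Dlx2 13th, Dlx5 211th and Dlx6 3843rd of the 8251 genes.

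**Figure D2:**
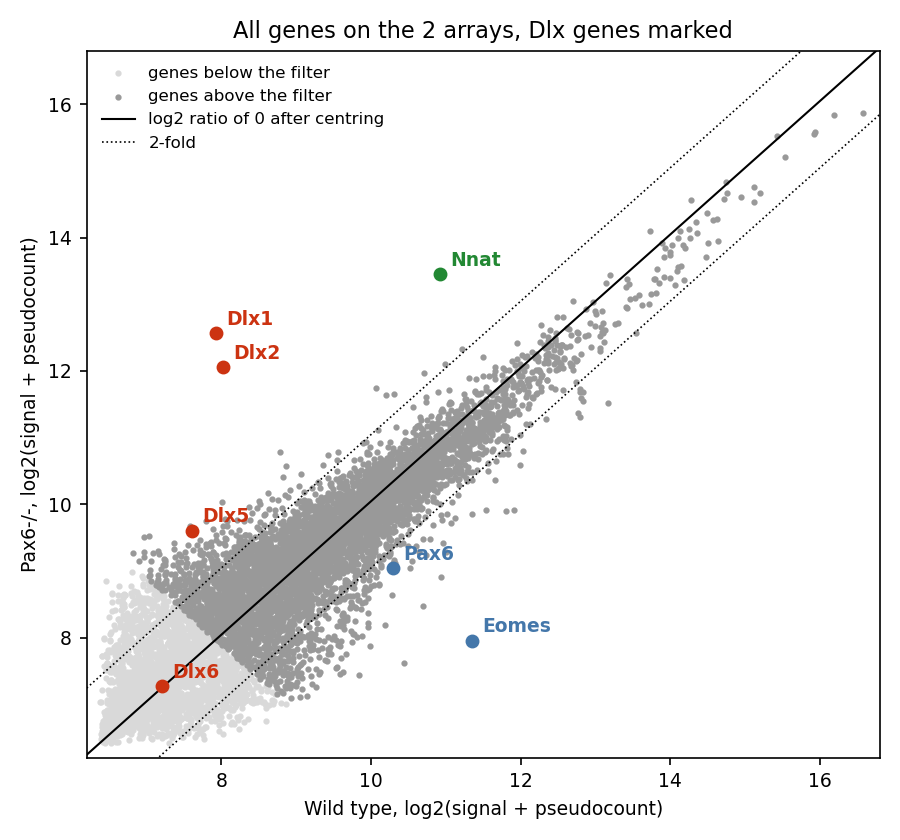
Each gene's log2(signal + pseudocount) in wild type (horizontal) and Pax6-/- (vertical), 1 array each, with genes below the signal filter in light grey, a solid line at a log2 ratio of 0 and dotted lines at 2-fold. Dlx1 and Dlx2 lie far above the cloud, at ratios of 4.59 and 3.99, Dlx5 at its upper edge and Dlx6 on the line among the dim genes. Eomes and Pax6 lie below it.

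The only spread these arrays can give is technical. It was estimated from 894 genes measured by 2 or more probe sets past the filter, as the SD of the disagreement between the log2 ratios of the brightest pair over the square root of 2, and was 0.56. In 3 equal groups by signal it was 0.72 in the dimmest, with signals up to 471, and 0.38 in the brightest. By their mean signals Dlx1 and Dlx2 belong to the brightest group, and their ratios were 12.1 and 10.5 times its spread. Their wild type signals lie in the range of the dimmest group, whose spread is 0.72. The Dlx5 ratio was 2.71 times its technical spread of 0.72. The Dlx6 ratio was 0.04 times the spread of 0.69 found below the filter. None of these values holds anything of the variation between embryos.

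How far the size of each ratio depends on the processing is shown by the recomputed values. Over 7 alternatives Dlx1 lay between 3.86 and 5.16, Dlx2 between 3.31 and 4.50 and Dlx5 between 1.33 and 2.58 in log2 ratio, all past 2-fold. In each range the lowest value came from the larger pseudocount and the highest from none. The Dlx6 ratio ran from -0.12 to 0.10 and changed sign with quantile and loess scaling, with the larger pseudocount and without the filter. With the filter at the 60th percentile Dlx5 no longer passed it.

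**Figure D3:**
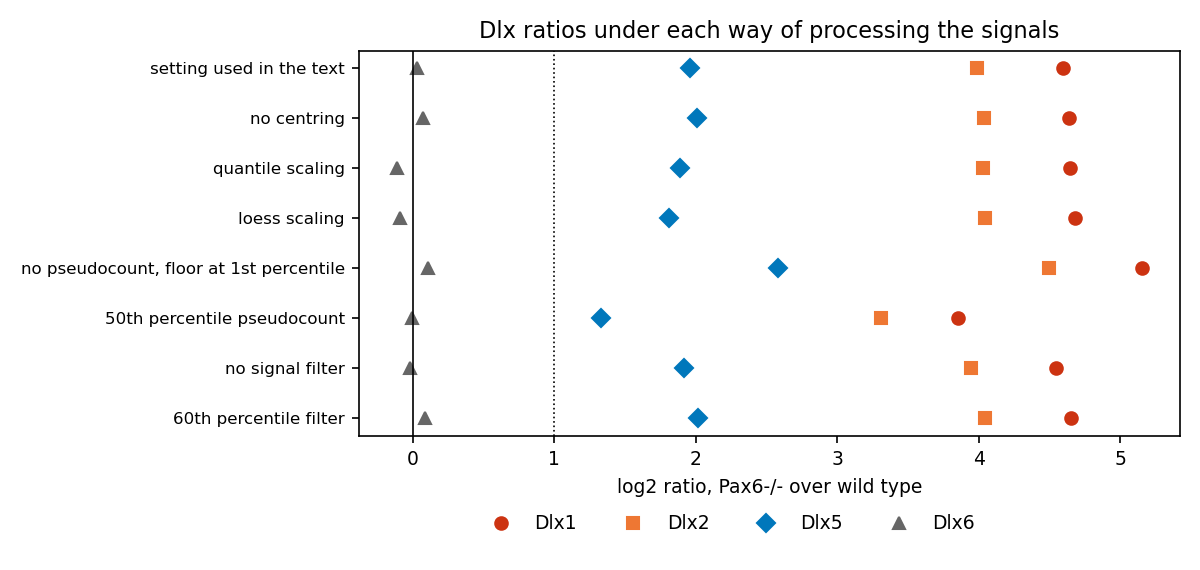
The log2 ratio (Pax6-/- over wild type) of Dlx1, Dlx2, Dlx5 and Dlx6 under the setting used in the text and 7 alternatives, with a dotted line at 2-fold. Dlx1 stays between 3.86 and 5.16, Dlx2 between 3.31 and 4.50 and Dlx5 between 1.33 and 2.58, in the same order throughout, and Dlx6 stays near 0.

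The linked pairs were then compared. Within the pair Dlx1 and Dlx2 the log2 ratios differed by 0.60, close to their combined technical spread of 0.54, so their order is not set by these data. Within Dlx5 and Dlx6 they differed by 1.93, against a combined spread of 1.002. The array held 3651 pairs of protein-coding genes that are next to each other in the gene order of GRCm38.p6, both pairs of Dlx genes among them. The median absolute difference in log2 ratio over these pairs was 0.55. The difference was smaller than that of Dlx1 and Dlx2 in 53.8% of pairs, and smaller than that of Dlx5 and Dlx6 in 96.2%.

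Both genes were at least 2-fold higher in 25 of the 3651 neighbouring pairs, or 0.685%, and in 6 of the 1771 pairs with both genes above the filter, or 0.339%. Ordered by the smaller ratio of the pair, Dlx1 and Dlx2 came first, at 3.99. The next pairs were Anxa2 and Foxb1 at 1.49, H2-M9 and H2-M1 at 1.42, and the mesoderm factors Mesp1 and Mesp2 at 1.39, all chosen after their values were seen. The difference between Dlx5 and Dlx6 was at least 1.33 under the other scalings and pseudocounts, and that between Dlx1 and Dlx2 ran from 0.55 to 0.66. Centring and averaging of probe sets cannot move either.

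Genes around the pairs did not share the size of the Dlx differences. The 3 nearest genes on the array on each side of each pair gave 12 flanking genes, of which 10 passed the filter. Their log2 ratios ran from -0.89 to 1.06 with a median of 0.15, and 8 of 12 were above 0, against 51.9% of all genes. The nearest on the side of Dlx1 was Hat1, a histone acetyltransferase gene, at 0.27, followed by the dynein gene Dync1i2 at 0.01 and Mettl8 at -0.48. Next to Dlx2 lay the integrin gene Itga6, below the filter, at -0.89, then the pyruvate dehydrogenase kinase gene Pdk1 at 0.25. Cdca7, a gene of dividing cells and the 5th gene beyond Dlx2, was the only flanking gene past 2-fold, at 1.06, with signals of 1961 and 4317.

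On the side of Dlx6 the proteasome subunit gene Sem1 was at 0.05, Dync1i1 at 0.55 and Pdk4 at 0.93. On the side of Dlx5 were Tac1, the tachykinin precursor gene, at 0.49, the asparagine synthetase gene Asns at -0.43 and Mios, below the filter, at -0.42. Sem1, the gene next to Dlx6, had signals of 5591 and 5966.

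**Figure D4:**
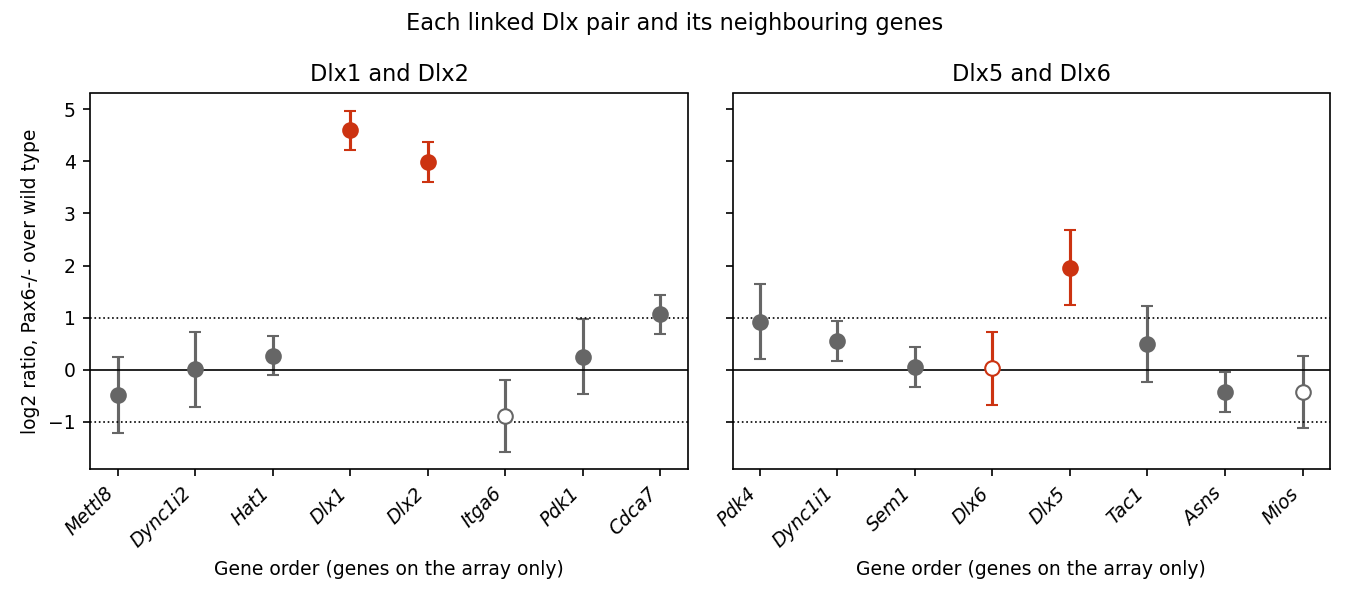
The log2 ratio (Pax6-/- over wild type) of Dlx1 and Dlx2 (left) and Dlx5 and Dlx6 (right) in red and of the 3 nearest genes on the array on either side in grey, in gene order. Bars are the technical spread at each gene's signal level and open circles lie below the signal filter. The 12 flanking genes sit between -0.89 and 1.06, below Dlx1, Dlx2 and Dlx5.

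Both pairs have antisense RNAs, long transcripts read from the opposite strand, and 2 of these had probe sets, matched by gene ID. Dlx1as, whose span overlaps Dlx1, had signals of 42.4 and 65.7 (wild type first) and a log2 ratio of 0.20. Dlx6os2 lies inside the span of Dlx6 and had 2 probe sets that stood apart in brightness. One had signals of 51.3 and 77.3 and a log2 ratio of 0.21, and the other 633 and 573 and a log2 ratio of -0.17. No probe set for a Dlx antisense RNA was thus near 2-fold. The strand and exact position of the probes were not examined, so whether the brighter probe set reads the antisense RNA or the overlapping gene cannot be said here. Probe sets of Dlx6os1 (Evf2), the antisense RNA known to act with Dlx proteins at their enhancers, were not analysed here.

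The remaining Dlx genes on the array, Dlx3 and Dlx4, act mainly in skin, placenta and the branchial arches. Dlx3 had signals of 50.8 and 106, a log2 ratio of 0.46, and Dlx4 had 197 and 109, a log2 ratio of -0.59. Both lay below the filter, and their ratios fell within the technical spread of 0.69 found there.

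Likeness over both arrays was measured as the distance between genes in the plane of their log2 values, among genes above the filter. The gene most like Dlx1 was Dlx2 and the reverse, at a distance of 0.52. Next for both were Prkar1b, a regulatory subunit gene of protein kinase A, and Dlk1, a membrane protein gene related to Notch ligands. They were much farther off, at 1.98 and 2.20 from Dlx1 and 1.49 and 1.70 from Dlx2. Prkar1b had signals of 359 and 1675 and Dlk1 of 383 and 1444. Dlx5 had nearer company, with the chemokine receptor gene Xcr1 at 0.07, Sytl4 at 0.19 and Thoc7 at 0.22. For Dlx6, itself below the filter, the nearest genes above it were Fshb, Sgcd and Yme1l1, all at 1.01 or more. Genes as dim as Dlx6 were left out of this search, so its distances could not be small. With only 2 arrays, closeness in this plane says no more than that the signals were similar.

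The other genes of the pathway were read from lists of its regulators, its partners and targets, and the territories in which it acts. Of 19 listed regulators known to act upstream of Dlx genes, 12 were matched on the array and the rest were not measured. Of these 12, 8 passed the filter, 4 of them higher and 4 lower in the mutant, and 0 of the 8 were 2-fold apart. Among all genes above the filter, 5.05% passed 2-fold upwards and 5.48% downwards, so a count of 0 among 8 says little. The median log2 ratio of the 8 regulators was 0.11, against -0.02 over all genes above the filter. The Hedgehog effectors Gli3 and Gli1 were at 0.89 and 0.88, Gli2 at -0.49 and Shh, the ligand, at 0.40. Gli3 had signals of 293 and 635 and Gli1 of 125 and 311, more than 2-fold apart without the pseudocount. Meis2, a TALE homeobox cofactor, lay below the filter with signals of 257 and 67.3, a log2 ratio of -1.23. Gsx1, a homeobox gene of subpallial progenitors chosen after its values were seen, was dim at 57.2 and 72.4.

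Genes linked to Dlx function gave a mixed picture. Of 25 on the array, 11 passed the filter, 6 higher and 5 lower, of which 0 were higher and 2 lower by 2-fold or more. Over all genes above the filter the shares past 2-fold were 5.05% higher and 5.48% lower. The list median was 0.48, but 0.01 over all 25 without the filter, where 13 were higher and 12 lower. Gad1, which makes GABA, had signals of 215 and 517 and was at 0.97. The vesicular GABA transporter gene Slc32a1, chosen after its values were seen, had 219 and 490 and was at 0.88. Without the pseudocount the signals of Gad1 and of Slc32a1 were more than 2-fold apart. Gad2, the other GABA-making enzyme gene, chosen after its values were seen, was dim at 78.3 and 95.7. The semaphorin receptor gene Nrp1 was at -1.53, although its other probe set was at 0.08, and the homeobox gene Hmx1 was at -1.33. Ikzf1 was at 0.94 and its other probe set at -0.80. Vax1, a ventral forebrain homeobox gene, had signals of 50.1 and 288 and Prox1 of 22.7 and 271, both below the filter.

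The lateral ganglionic eminence, next to the cortex, and the medial one behind it, which makes most cortical interneurons, were listed apart. Of 18 lateral and striatal genes on the array, 7 passed the filter, 5 higher and 2 lower, with 2 at least 2-fold higher, and the median was 0.94. Over all 18, 13 lay above 0 with a median of 0.23, and with the mean over each gene's probe sets the filtered median was 0.071. Of all genes above the filter 5.05% were at least 2-fold higher, and of all genes on the array 51.9% lay above 0. The homeobox gene Pbx3, known from the striatum, was at 1.61 with other probe sets at 1.59 and 2.05. Pdyn, the prodynorphin gene, was at 1.05, with its other probe set at 0.12. Penk, the proenkephalin gene, was at 0.94, with its other probe sets at -1.48 and -0.32. Six3, an anterior forebrain homeobox gene, had signals of 21.0 and 151 and lay below the filter, and its other probe set was at 0.31. The striatal genes Isl1, at 42.3 and 68.2, and Ebf1, at 63.7 and 87.2, also lay below the filter. So did Meis2, which is on this list too, at -1.23. The 2 lower genes above the filter were Drd2 at -0.70 and Foxp1 at -0.53. Isl1, Ebf1, Drd2 and Foxp1 were chosen after their values were seen.

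Genes of the medial ganglionic eminence and of interneurons were mixed. Of 18 on the array, 8 passed the filter, 3 higher and 5 lower, and the median was -0.26, or -0.22 without the filter. Of all genes above the filter, 48.4% were higher, and 5.05% were at least 2-fold higher. Lhx6, the factor that marks interneurons from this eminence, had signals of 605 and 362 and was at -0.68. Nr2f2, a nuclear receptor gene of the caudal eminence, was the only one past 2-fold, at 1.21, and its other probe set was at 0.87. The serotonin receptor gene Htr3a was at 0.85 and Nr2f1 at -0.70. Lhx8, a ventral homeobox gene chosen after its values were seen, was dim at 41.7 and 46.5. Dlx1 and Dlx2 thus lay above every gene of both eminence lists on the array, the highest of which was Pbx3, while Dlx5 lay within the range of the Pbx3 probe sets.

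Pallial identity genes lay opposite to the Dlx genes. All 15 that passed the filter, of 18 on the array, were lower in the mutant, 7 of them at least 2-fold, with a median of -0.98. Pax6, the targeted gene, is counted in both the 15 and the 7. Of all genes above the filter, 5.48% were at least 2-fold lower. Eomes, which marks intermediate progenitors, was at -3.44, Neurog2, the proneural factor of the pallium, at -1.94, Rnd2 at -1.44, Neurod1 at -1.43, Dll1 at -1.21 and Tbr1 at -1.10, beside Pax6. The other Eomes probe set was at -1.39 and the other Dll1 probe set at -0.02. Of 11 defining markers of cerebral cortex, 6 were matched on the array, all of them also on the pallial list. Their summed signals were 15667 in wild type and 6020 in the mutant. Because these genes differ between the genotypes, the sums cannot check the tissue label of the mutant array. Tbr1 and Neurod2 still had signals of 2405 and 1500 in the mutant.

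Listed homeobox genes outside the Dlx and Hox lists were evenly split in direction above the filter. Over all 61 on the array, 34 were higher and 27 lower, with a median of 0.04. Of these 61 homeobox genes, 32 passed the filter, 16 higher and 16 lower, with a median of -0.11. The 5 past 2-fold on the higher side were Uncx at 1.84, Pbx3, Pitx1 at 1.57, Lhx9 at 1.12, with its other probe set at 0.25, and Tlx3 at 1.09. The 4 on the lower side were Rax at -1.44, Hmx1, Pax6 and Pax3 at -1.12. Uncx, Lhx9 and Tlx3 had wild type signals of 49.96, 85.1 and 89.2, near or below the pseudocount. Hox cluster genes, which are known from the hindbrain, spinal cord and trunk, leaned upwards. Of 31 on the array 27 were above 0, against 51.9% of all genes, with a list median of 0.24 without the filter. The 13 above the filter had a median of 0.47, with Hoxb1 at 1.09 and Hoxa2 at 1.08 past 2-fold and Hoxc9 and Hoxa3 at 0.97 and 0.64. Genes below the filter leaned the same way, with 59.2% of 2664 above 0 and a median of 0.11, so that small positive ratios were common among dim genes. The Hox list was not all dim, since Hoxa4, named after its values were seen, had signals of 1647 and 2387 and was at 0.47, with its other probe sets between -0.82 and 0.55.

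**Figure D5:**
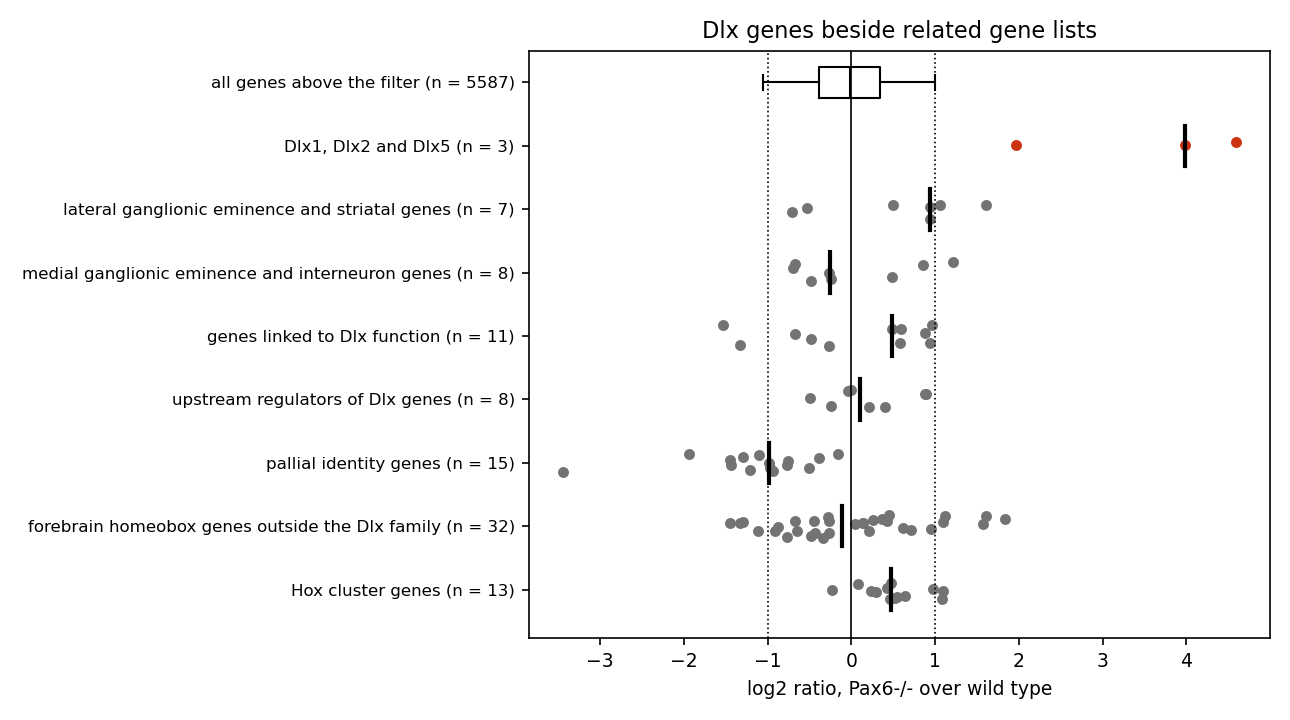
The log2 ratio (Pax6-/- over wild type) of Dlx1, Dlx2 and Dlx5 (red) and of each list's genes above the signal filter (grey), with list medians as thick bars. The box shows all 5587 genes above the filter, from the 25th to the 75th percentile with whiskers to the 5th and 95th. No gene of the other lists reaches the 1.96 of Dlx5, and pallial genes lie below 0.

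In bulk tissue a larger number of Dlx-expressing cells and more RNA per cell cannot be told apart. Markers of other cells the dissection could hold were measured on the same arrays. Ectoderm and cartilage of the head, where Dlx genes also act, had 10 genes on the array, with summed signals of 1645 and 2318 and a median of 0.26 without the filter. None of the 5 above it was 2-fold apart, although Krt18, at 0.23, had another probe set at 1.16. The cartilage collagen gene Col2a1, below the filter, had 38.0 and 294. Another collagen gene of the list, Col9a1, above the filter, had 307 and 222 and was at -0.40. Krt18 and Col9a1 were named after their values were seen. Meningeal and mesenchymal markers had summed signals of 7626 and 7916 and a median of 0.30 above the filter, with Twist2 at 1.52 and Igf2 at -1.04, the other Igf2 probe set being at 0.39. Diencephalic markers summed to 2520 and 3298 with a median of 0.35, Zic1 at 1.22, Lhx9 at 1.12 and Rax at -1.44. Microglial markers summed to 2573 and 4252 with a median of 0.48, Csf1r at 1.54, C1qb at 1.14 and Laptm5 at -1.36. The other probe sets of Csf1r, C1qb and Laptm5 were at 0.34, -0.93 and 0.06 and did not bear these values out. Vascular markers summed to 2259 and 2795 with a median of 0.16, and of the 5 above the filter 3 were higher and 2 lower. Cldn5 was at 1.06, with signals of 175 and 472. Eng, named after its values were seen, was at -0.96, with signals of 695 and 331. Erythroid markers summed to 19087 and 17001 with a median of 0.08, and choroid plexus and hem markers to 1788 and 1722 with a median of -0.16. Without the filter, with the centring unchanged, medians were 0.17 for meningeal and mesenchymal, 0.10 for diencephalic, 0.25 for microglial and 0.25 for vascular markers. They were -0.04 for erythroid and 0.02 for choroid plexus and hem markers. No marker was listed at 0, since the lowest signal on the arrays is 1.0. The part of these cells in the Dlx differences was not tested.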

How the data were processed

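The deposited values are MAS5 signal intensities on a linear scale, 1 per probe set and array, and the authors' use of MAS5 is known from the submitters' processing notes. Neither its version nor its scaling target is stated, and detection calls were not used here. Median signals were 237 in wild type and 284 in Pax6-/-, and having 1 array per genotype limits precision. Of 12488 probe sets, 66 were controls, 10833 had 1 gene symbol, 396 several and 1193 none, and none was named from several. Where a gene had several probe sets, the one of highest mean log2 signal was taken. Log2 ratios were centred on their median over probe sets above the filter, which removed 0.05.

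No test between genotypes is possible, and genes are described by size with a 2-fold threshold. The genes and lists were chosen with earlier results of these data known. Named genes are the Dlx genes, Pax6, the 3 genes most like each, the 5 next highest ratios, flanking genes, and list members 2-fold apart or among the 4 largest of their list; exceptions are marked. Alternatives covered scaling, pseudocount, filter, probe set averaging and threshold. Steps were tested on simulated data. Python 3.11.15, numpy 2.4.6, pandas 2.3.3, statsmodels 0.14.6 and matplotlib 3.10.9 were used, with gene order and sequences from RefSeq GRCm38.p6.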

Additional observations from a re-analysis of the deposited data

How the results depend on the processing

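Dlx1, Dlx2 and Dlx5 kept their direction and stayed past 2-fold under all 7 alternatives of scaling, pseudocount and filter. Without a pseudocount, with values floored at the 1st percentile, the log2 ratio was 5.16 for Dlx1 and 4.50 for Dlx2, and with the 50th percentile pseudocount 3.86 and 3.31. Genes at least 2-fold higher and lower numbered 447 and 437 without a pseudocount, 90 and 128 with the 50th percentile pseudocount, 498 and 526 with no filter, 97 and 114 with the 60th percentile filter, 785 and 844 at 1.5-fold, and 58 and 68 at 3-fold.

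List medians were recomputed 120 times, and 103 of these shifted by under the SD of all ratios divided by the square root of the list's size. The rest were these. Lateral eminence and striatal genes were at 0.66 with the 50th percentile pseudocount, 0.18 with no filter, 1.66 with the 60th percentile filter and 0.071 with averaged probe sets. Genes linked to Dlx function were at -0.037, -0.42 and -0.019 with no filter, the 60th percentile filter and averaged probe sets. The listed homeobox genes outside the Dlx and Hox lists were at -0.29 without a pseudocount, -0.0060 with no filter and 0.020 with averaged probe sets. With no filter, medians were 0.19 for Hox, 0.12 for meningeal, 0.21 for microglial and 0.050 for diencephalic genes. With the 60th percentile filter they were -0.90 for vascular and 1.20 for microglial genes, and the latter were at 0.18 with averaged probe sets. Where the filter changed, counts and medians include a new centring. With no filter it removed 0.09 in place of 0.05, and with the centring unchanged the 8251 genes gave 550 higher and 460 lower. The pseudocount and filter limit dim genes most, and wild type signals of all 4 Dlx genes were dim. No paired analysis was possible because each genotype has 1 array.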
